A study of Mus musculus with 8 samples.

Results

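The expression of 35 astrocyte genes was examined in the brain cortex of 4 mice on a normal diet and 4 mice on a high fat diet (HFD). The genes were chosen by name, as the rows of the FPKM values that carry the symbols of a fixed list of astrocyte genes. All 35 were among the 13996 genes of the values used here, and all 35 were among the 13982 genes that were tested. Male C57BL/6 mice came at 8 weeks of age and were fed for 8 weeks. Of these, 4 mice received a conventional diet and 4 a diet with 60% fat by weight, and all were 16 weeks old when the cortex was taken. Each library held rRNA-depleted total RNA of 1 mouse, so the replicates are separate animals.

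Astrocytes are the glial cells that surround synapses and blood vessels. They clear glutamate and potassium after neuronal firing, convert glutamate to glutamine, move water at their endfeet, store glycogen and couple to each other through gap junctions. When the brain is injured or inflamed they raise intermediate filament proteins, which is known as reactive astrogliosis. The 35 genes cover transporters and channels, junction proteins, the cytoskeleton, metallothioneins, enzymes, receptors and secreted proteins. The cortex was sequenced as whole tissue. In such samples fewer astrocytes, less RNA per astrocyte and RNA of the same genes from other cells cannot be told apart.

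The expression level is given as FPKM, fragment counts scaled to the length of the transcript and the depth of the library, and read depth is unknown. The sum of FPKM over all genes lay between 562431 and 639142 per mouse. Marker genes of other tissue differed between the diets and among the normal diet mice. Gabra6, a receptor subunit of cerebellar granule cells, was at 1.7, 46.5, 61.7 and 12.2 FPKM in normal diet mice 1 to 4 and between 0 and 0.2 in HFD mice. The summed level of 7 cerebellar markers ranged from 16.1 to 281 in normal mice and from 12.3 to 17 in HFD mice, and that of 5 thalamic markers from 23.4 to 84.8 and from 20.2 to 24.1. In both lists normal mice 2 and 3 held the highest sums. The 6 striatal markers were all lower in HFD mice, with sums of 184 to 345 against 50.3 to 60.6, as were all 10 oligodendrocyte markers, with sums of 2245 to 3688 against 1547 to 2137. Ependymal markers (4 of 4 lower) and blood markers (5 of 5 lower) moved the same way, and 2 of 5 choroid plexus markers were lower, with a sum of 941 in HFD mouse 4 and 21.0 to 76.6 in the other 3 HFD mice. Among markers of cortical projection neurons, which were present in every library, 4 of 5 were higher, with sums of 259 to 395 against 434 to 514. None of 6 microglial and none of 5 pan-neuronal markers passed the adjusted threshold in limma, and 1 of each list had an unadjusted p below 0.05. Of 5 endothelial markers, 1 was higher and 2 were lower (sums of 75.2 to 82.9 against 68.5 to 76.9), and of 5 oligodendrocyte precursor markers 1 was higher and 1 was lower (sums of 34.7 to 37.1 against 31.6 to 33.4). The part of these differences in the results on astrocyte genes was not tested except by the fits given for mice 2 and 3 and for the cerebellar markers.

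**Figure D1:**
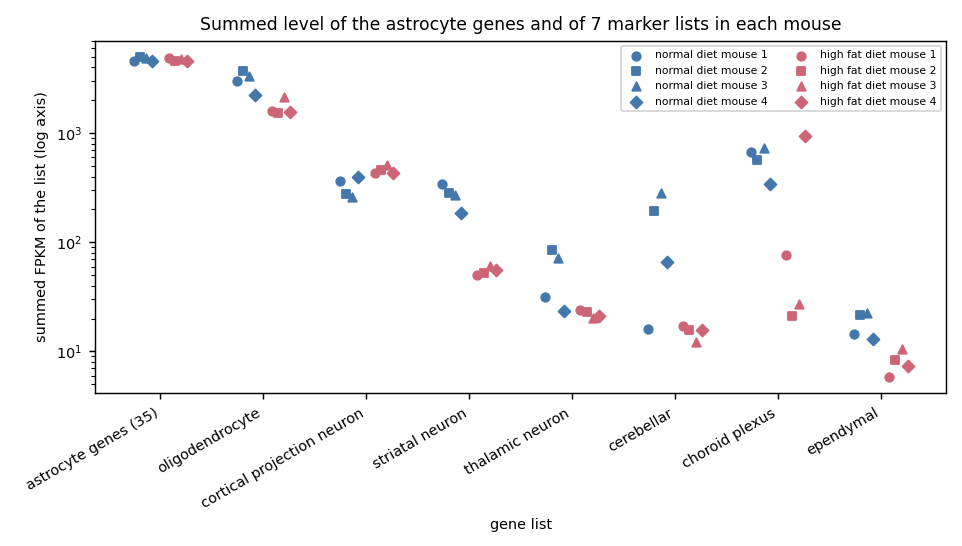
Summed FPKM (log axis) of the 35 astrocyte genes and of 7 marker lists in each of the 8 mice, colored by diet and with a symbol for each mouse number. The astrocyte sums of the diets overlap, from 4601 to 5016 in normal mice and from 4546 to 4890 in HFD mice, while the striatal sums do not, and normal mice 2 and 3 stand highest for the thalamic and cerebellar lists. Abundant genes weigh most in each sum.

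To find which astrocyte genes differed between the diets, log2(FPKM + 0.1) was compared with limma, and a gene was called when its adjusted p over all 13982 genes was below 0.05. After high fat diet, 8 of the 35 astrocyte genes were lower and 6 were higher, and 21 did not pass. Over all genes tested, 15.3% were lower, 17.7% were higher and 33.1% were called in either direction, so the share of 40.0% among the astrocyte genes was near that background. The lower genes were Aqp4, S100b, Slc4a4, Gfap, Fam107a, F3, Acsbg1 and Htra1, and the higher genes were Mfge8, Atp1b2, Cspg5, Gjb6, Slc1a2 and Fgfr3. The median log2 fold change was -0.041 for the 35 genes and 0.0031 for all genes. Among called genes, Aqp4 and S100b differed by over 1.5-fold, which is 2 of 35 genes beside 7.13% of all genes. Agt differed by 2.13-fold and was not called. The 4 values of each diet did not overlap for 12 of the 35 genes, 7 of them below and 5 above the normal mice, while 31.9% of all genes had no overlap. The summed level of the 35 genes reached 4784 ± 208 FPKM (SD, n = 4) on the normal diet and 4710 ± 157 (SD, n = 4) on the high fat diet, a difference within the spread between mice. Abundant genes weigh most in this sum. The mean over all mice was 849 FPKM for Sparcl1 and 31.8 for Aqp4, so the sum shows little of genes such as Aqp4.

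**Figure D2:**
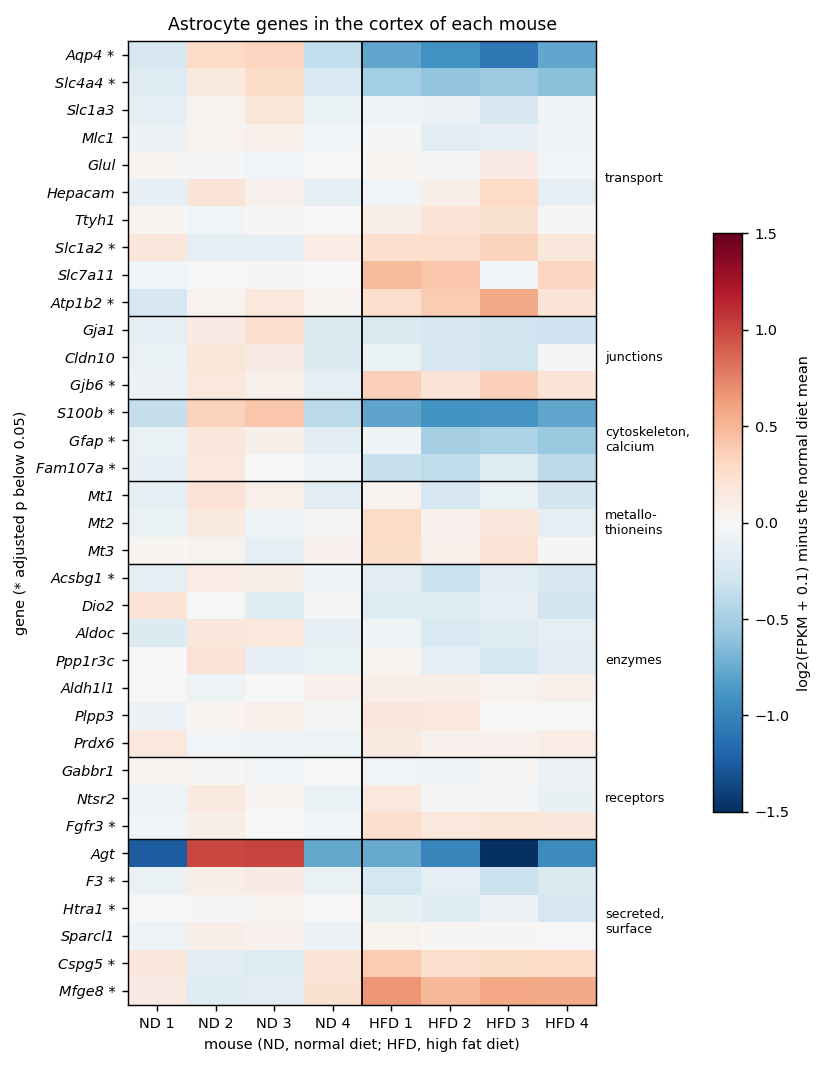
Each row is 1 of the 35 astrocyte genes, grouped by role, and each column is 1 mouse. The color gives log2(FPKM + 0.1) minus the mean of the 4 normal diet (ND) mice, and a star marks the 14 genes with an adjusted p below 0.05. Normal mice 2 and 3 stand above normal mice 1 and 4 for Agt, S100b and Aqp4, and below them for Mfge8.

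Transporters, channels and their partners formed the largest group, with 10 genes, of which 2 were lower and 2 were higher. Aqp4, the water channel of astrocyte endfeet (chromosome 18, 15389496 to 15410982, GRCm38), was at 34.0, 50, 50.9 and 31.5 FPKM in normal mice and at 23.7, 21.6, 19.3 and 23.6 in HFD mice. Every HFD mouse lay below every normal mouse, and normal mice 2 and 3 lay far above the other two. Aqp4 fell by 0.88 on the log2 scale (standard error 0.157, adjusted p = 0.00348), which is 1.85-fold lower. Slc4a4, the sodium bicarbonate cotransporter that regulates pH (chromosome 5, 88886818 to 89239653), was at 38.3, 48.6, 53.1 and 37.5 FPKM in normal mice and at 30.9, 29.2, 30 and 28.6 in HFD mice. The diets did not overlap, and the HFD mice lay within a narrow range. Slc4a4 fell by 0.56 on the log2 scale (standard error 0.106, adjusted p = 0.00438).

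Atp1b2, the beta subunit of the sodium potassium pump found on astrocytes (chromosome 11, 69599736 to 69605942), was at 16.0, 19.7, 21.3 and 19.6 FPKM in normal mice and at 22.8, 24.9, 28.2 and 21.9 in HFD mice. It was higher by 0.35 on the log2 scale (standard error 0.101, adjusted p = 0.0255), and the diets did not overlap. Slc1a2, the main glutamate transporter of the forebrain (chromosome 2, 102658659 to 102790784), was at 378, 304, 303 and 362 FPKM in normal mice and at 398, 401, 421 and 377 in HFD mice. HFD mouse 4 lay just below normal mouse 1, and the gene was higher by 0.25 on the log2 scale (standard error 0.081, adjusted p = 0.0394). Slc1a3, the other astrocytic glutamate transporter, did not pass the test, at 140, 160, 174 and 144 FPKM in normal mice and at 147, 145, 130 and 149 in HFD mice. Here normal mice 2 and 3 were the highest of all 8, opposite to their place for Slc1a2, where they were the lowest. Slc7a11, the cystine and glutamate exchanger, came close to the threshold with a log2 fold change of 0.29 (adjusted p = 0.0505), and HFD mouse 3 lay among the normal mice. The other 4 genes of the group did not pass and had log2 fold changes between -0.087 and 0.135. They were Glul, the glutamine synthetase, Mlc1 and Hepacam, which form a complex at endfeet, and the chloride channel gene Ttyh1.

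**Figure D3:**
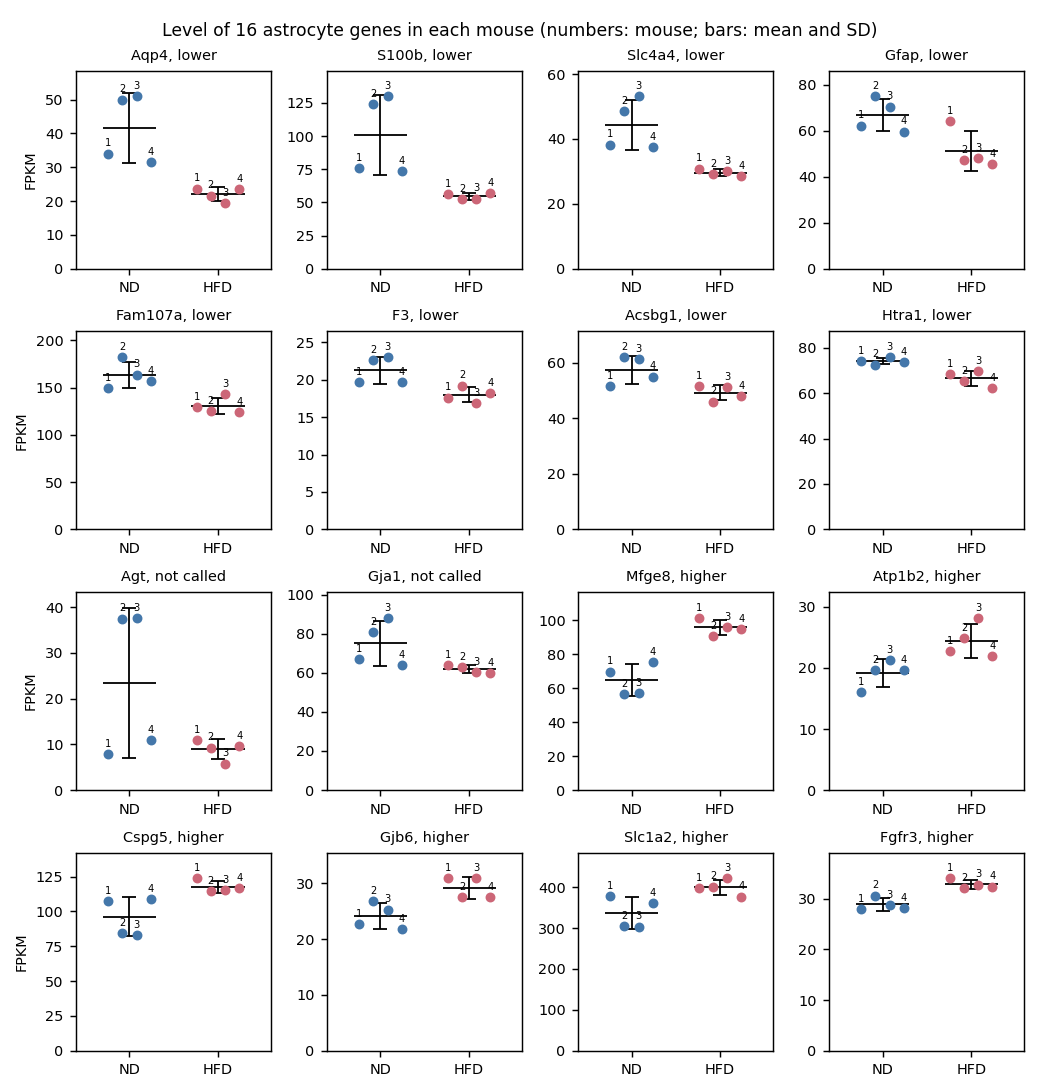
FPKM of 16 astrocyte genes in each mouse, with the axis of each panel starting at 0, the mouse number above each point and bars for the mean and SD of the 4 mice of a diet (ND, normal diet). The top 8 panels are the genes that were lower, followed by Agt and Gja1, which did not pass, and the 6 genes that were higher. Agt lies at 37.5 and 37.7 in normal mice 2 and 3 and at 11 or below in the other 6 mice.

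Of the 3 junction proteins, only Gjb6 passed. Gjb6 encodes connexin 30 (chromosome 14, 57123303 to 57133611) and was at 22.7, 26.8, 25.3 and 21.8 FPKM in normal mice and at 30.9, 27.6, 30.9 and 27.5 in HFD mice. It was higher in all 4 HFD mice than in any normal mouse, by 0.28 on the log2 scale (standard error 0.075, adjusted p = 0.0204). Gja1, which encodes connexin 43, the other main gap junction protein of astrocytes, was at 66.9, 80.8, 88.1 and 64.1 FPKM in normal mice and at 64.1, 62.9, 60.4 and 59.7 in HFD mice. Its log2 fold change was -0.27 (adjusted p = 0.0546), and HFD mouse 1 had the same value as normal mouse 4. Cldn10, a claudin, did not pass, with a log2 fold change of -0.16 (adjusted p = 0.227).

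The 3 genes of the cytoskeleton and of calcium binding were all lower in HFD mice. S100b, a calcium binding protein that astrocytes also secrete (chromosome 10, 76253853 to 76261159), was at 76.1, 124, 130 and 73.8 FPKM in normal mice and at 56.2, 52.3, 52.8 and 57.0 in HFD mice. The diets did not overlap, and normal mice 2 and 3 again stood apart from the other two. S100b fell by 0.84 on the log2 scale (standard error 0.179, adjusted p = 0.0074), which is 1.79-fold lower. Gfap, the intermediate filament gene that marks reactive astrocytes (chromosome 11, 102887336 to 102900912), was at 62.2, 74.8, 70.4 and 59.6 FPKM in normal mice and at 64.1, 47.2, 47.9 and 45.3 in HFD mice. HFD mouse 1 lay within the range of the normal mice, far above the other three, and Gfap fell by 0.39 on the log2 scale (standard error 0.114, adjusted p = 0.0265). Fam107a, an actin-associated gene that responds to glucocorticoids (chromosome 14, 8296274 to 8318023), was at 150, 182, 164 and 157 FPKM in normal mice and at 129, 125, 143 and 124 in HFD mice. It fell by 0.32 on the log2 scale (standard error 0.07, adjusted p = 0.00776), with no overlap between the diets.

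Nuclear factor I (NFI) proteins are transcription factors known to act on astrocyte genes, and their core motif TTGGC was looked up on both strands in the 250 bases upstream of the start of the RefSeq gene (GRCm38.p6). Upstream sequence was at hand for 30 of the 35 genes, and 15 of these (50%) held the motif, beside 41.5% of 32851 gene starts. The core ACAAT of SOX factors, searched the same way, was in 3 of 30 (10%), beside 27.7% of all starts. A match of so few letters is a description of the sequence and not a binding site. The windows of S100b, Agt and Mfge8 are shown because they belong to a gene that was lower, the gene that varied most among normal mice and the gene that was highest relative to its normal level. They lie on the plus strand at chr10:76253586-76253835, on the minus strand at chr8:124569707-124569956 and on the minus strand at chr7:79149061-79149310, are written 5′ to 3′ and have the NFI motifs in capitals.
S100b: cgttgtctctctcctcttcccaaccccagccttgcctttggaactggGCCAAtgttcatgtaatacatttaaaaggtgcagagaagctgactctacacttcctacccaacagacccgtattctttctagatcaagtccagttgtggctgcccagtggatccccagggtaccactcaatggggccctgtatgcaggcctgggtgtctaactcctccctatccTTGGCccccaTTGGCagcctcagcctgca
Agt: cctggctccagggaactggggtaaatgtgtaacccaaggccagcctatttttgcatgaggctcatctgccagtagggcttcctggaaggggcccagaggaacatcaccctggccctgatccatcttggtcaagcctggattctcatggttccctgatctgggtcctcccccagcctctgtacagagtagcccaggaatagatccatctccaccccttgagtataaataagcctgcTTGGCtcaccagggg
Mfge8: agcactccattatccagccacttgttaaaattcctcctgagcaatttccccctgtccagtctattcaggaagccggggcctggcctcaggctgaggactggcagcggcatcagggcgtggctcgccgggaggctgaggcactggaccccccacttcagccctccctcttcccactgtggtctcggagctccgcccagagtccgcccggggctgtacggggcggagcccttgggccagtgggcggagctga
S100b held 3 NFI motifs, Agt 1 and Mfge8 none.

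The metallothioneins, small proteins that bind zinc and copper, did not pass the test in either direction, and 0 of 3 had an unadjusted p below 0.05 in limma. Mt1 was at 268, 342, 309 and 263 FPKM in normal mice and at 306, 247, 274 and 242 in HFD mice. Mt2 was at 68.6, 81.4, 70 and 74.5 FPKM in normal mice and at 89.6, 76.7, 82.4 and 67.1 in HFD mice, and Mt3, the brain form, was at 265, 269, 236 and 270 and at 315, 275, 300 and 262. The values of the diets overlapped for all 3 genes, and their log2 fold changes were -0.14, 0.096 and 0.15. After quantile normalization Mt3 passed, at 0.20 (adjusted p = 0.0485). The annotation places an antisense gene across 73.5% of the exon bases of Mt2, and the strand setting of the counting is unknown here, so the Mt2 level is uncertain.

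Of 7 genes for enzymes and metabolic regulators, 1 passed. Acsbg1, an acyl-CoA synthetase for long fatty acids (chromosome 9, 54604877 to 54661870), was at 51.7, 62.0, 61.4 and 55.0 FPKM in normal mice and at 51.5, 46.0, 51.2 and 48.0 in HFD mice. The lowest normal mouse and the highest HFD mouse differed by little, and Acsbg1 fell by 0.22 on the log2 scale (standard error 0.068, adjusted p = 0.0316). Dio2, the deiodinase that activates thyroid hormone, had a log2 fold change of -0.19 (adjusted p = 0.0783). The log2 fold changes of the glycolytic enzyme gene Aldoc and of Ppp1r3c, which targets a phosphatase to glycogen, were -0.15 and -0.13. Those of the folate enzyme gene Aldh1l1, the lipid phosphatase gene Plpp3 and the peroxiredoxin gene Prdx6 were 0.081, 0.082 and 0.091, and none of these 5 passed. The annotation places an antisense gene across 11.05% of the exon bases of Aldh1l1.

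Among the 3 receptors, Fgfr3, a fibroblast growth factor receptor (chromosome 5, 33721674 to 33737068), was at 28.0, 30.6, 28.8 and 28.1 FPKM in normal mice and at 34.0, 32.1, 32.8 and 32.4 in HFD mice. The diets did not overlap, and Fgfr3 was higher by 0.18 on the log2 scale (standard error 0.045, adjusted p = 0.0125). A gene model on the opposite strand whose biotype marks it as still to be tested (TEC) covers 13.9% of its exon bases. The neurotensin receptor gene Ntsr2 and the GABA-B receptor gene Gabbr1 did not pass, at 0.0034 and -0.041 on the log2 scale, and the 95% interval of Ntsr2 ran from -0.157 to 0.164.

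The 6 secreted and surface proteins held 2 lower and 2 higher genes. Mfge8, a secreted protein that bridges dying cells to phagocytes (chromosome 7, 79133768 to 79149060), was at 69.9, 56.6, 57.1 and 75.5 FPKM in normal mice and at 102, 91.0, 96.1 and 95.1 in HFD mice. All HFD mice lay above all normal mice, and normal mice 2 and 3 were the lowest of the 8. Mfge8 was higher by 0.58 on the log2 scale (standard error 0.093, adjusted p = 0.00236), the lowest adjusted p among the 35 genes. Cspg5, the proteoglycan neuroglycan C (chromosome 9, 110243783 to 110262576), was at 108, 84.7, 83.2 and 109 FPKM in normal mice and at 124, 115, 115 and 117 in HFD mice. It was higher by 0.30 on the log2 scale (standard error 0.093, adjusted p = 0.0337), and the diets did not overlap.

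F3, the tissue factor that starts coagulation (chromosome 3, 121723537 to 121735048), was at 19.7, 22.6, 23 and 19.7 FPKM in normal mice and at 17.6, 19.2, 16.9 and 18.2 in HFD mice, and fell by 0.24 on the log2 scale (standard error 0.068, adjusted p = 0.0253). Htra1, a secreted serine protease (chromosome 7, 130936111 to 130985660), was at 74.1, 72.5, 75.8 and 73.5 FPKM in normal mice and at 68.4, 65.2, 69.8 and 62.3 in HFD mice, and fell by 0.16 (standard error 0.046, adjusted p = 0.0273). The diets did not overlap for either gene. Agt, the angiotensinogen precursor that astrocytes make in the brain, had the largest fitted difference of all 35 genes and did not pass. It was at 7.8, 37.5, 37.7 and 10.9 FPKM in normal mice and at 11, 9.3, 5.8 and 9.6 in HFD mice, so that only normal mice 2 and 3 lay above the rest. It differed by -1.09 on the log2 scale (standard error 0.494, adjusted p = 0.117). Sparcl1, a matrix protein of synapses, had the highest level of the 35 genes, with 843 ± 57.2 FPKM (SD, n = 4) for the normal diet and 856 ± 13.5 (SD, n = 4) for HFD, and did not pass.

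Because normal mice 2 and 3 held the most cerebellar and thalamic marker RNA, the order of the normal mice was examined for the astrocyte genes. Mice 2 and 3 were both above mice 1 and 4 for 21 of 35 genes (60.0%), beside 26.0% of all genes tested, and both below them for 5 of 35 (14.3%), beside 27.3%. The 5 genes were Slc1a2, Glul, Aldh1l1, Cspg5 and Mfge8. The median coefficient of variation of the 35 genes was 9.55% in normal mice and 5.42% in HFD mice, and over all genes it was 8.45% and 7.08%. When mice 2 and 3 were left out, which was decided after the data were seen, 8 of the 14 called genes were still called in the same direction. These were Aqp4, S100b, Slc4a4, Fam107a, Mfge8, Atp1b2, Gjb6 and Fgfr3. Of all 13982 genes, 19.6% were called in that fit. That share belongs beside these 8 genes and Dio2 among all 35, and not beside 8 of 14. The 14 had already been called with all mice, most of which the 2 fits share. All 14 kept their direction, with a median size of 66.3% of the value from all mice. Aqp4 was then at -0.57 (adjusted p = 0.007), S100b at -0.46 (adjusted p = 0.0035), Slc4a4 at -0.35 and Fam107a at -0.24, so that no called gene differed by over 1.5-fold. Mfge8 was at 0.40 and Atp1b2, Gjb6 and Fgfr3 were at 0.46, 0.39 and 0.23. Slc1a2, Gfap, Acsbg1, Htra1, Cspg5 and F3 did not pass, with values of 0.11, -0.27, -0.12, -0.15, 0.12 and -0.13. Dio2 passed in that fit, at -0.28 (adjusted p = 0.0351). Agt was at -0.085 (standard error 0.241), close to 0. Marker lists still differed between the diets without mice 2 and 3. All 6 striatal markers were lower (median log2 fold change -2.60), as were 8 of 10 oligodendrocyte markers (-0.71) and 2 of 5 cerebellar markers tested. Of 5 cortical projection neuron markers, 3 were higher (0.57). The part of these remaining differences in the 8 genes was not tested.

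In the 8 fits that each left out 1 mouse, Aqp4, S100b, Slc4a4, Fam107a, Mfge8 and Fgfr3 were always called. The other 8 genes lost the call in some fits and kept their direction in all of them. Atp1b2 lost it without HFD mouse 2 or 3 (adjusted p up to 0.0649) and Gjb6 without HFD mouse 1 or 3 (up to 0.0577). F3 lost it without normal mouse 2 or 3 or HFD mouse 1 or 3 (up to 0.0705), Acsbg1 without normal mouse 2 or 3 or HFD mouse 2 or 4 (up to 0.0878), and Htra1 without normal mouse 1 or 3 or HFD mouse 2 or 4 (up to 0.0722). Gfap passed only without normal mouse 1 or 4 or HFD mouse 1, Slc1a2 only without normal mouse 1 or 4 or HFD mouse 4, and Cspg5 only without normal mouse 1 or 4. Genes outside the 14 also gained a call. Agt was called without normal mouse 1, at -1.51 (adjusted p = 0.0249), and Gja1 without normal mouse 1 or 4, with values down to -0.34. Slc7a11 was called without HFD mouse 3, at 0.41 (adjusted p = 0.00322), Dio2 without normal mouse 3, Ttyh1 without HFD mouse 4 and Prdx6 without normal mouse 1.

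When the mean level of the cerebellar markers entered the model as a covariate, none of the 14 genes was called in limma and 1.92% of all genes were called. Atp1b2, Gjb6 and Fgfr3 were the 3 of the 14 with an unadjusted p below 0.05. The marker level itself did not overlap between the diets, with means of log2(FPKM + 0.1) from 0.828 to 4.88 in normal mice and from -0.701 to -0.0123 in HFD mice. The median standard error of the 35 genes was 0.117 with the covariate and 0.0762 without it. In that fit 12 of the 14 genes kept their direction, with Aqp4 at -0.30 (standard error 0.202), S100b at -0.093 (standard error 0.189), Gjb6 at 0.45 (adjusted p = 0.103) and Atp1b2 at 0.66 (adjusted p = 0.0666). Slc1a2 and Cspg5 turned to -0.067 and -0.066, and Agt turned to 1.09 (adjusted p = 0.205). Dio2 was called, at -0.48 (adjusted p = 0.0417). For the astrocyte genes, diet and the amount of this marker RNA cannot be told apart with these 8 mice.

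**Figure D4:**
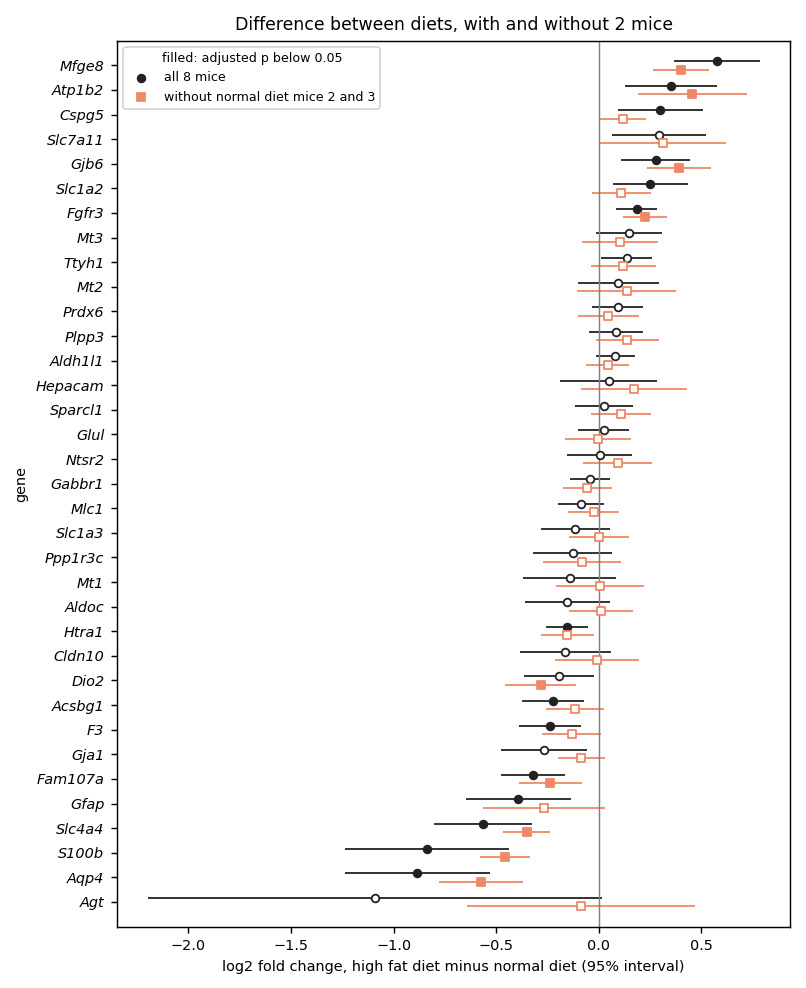
Log2 fold change (high fat diet minus normal diet, log2(FPKM + 0.1)) of the 35 astrocyte genes with its 95% interval from limma, from all 8 mice (black circles) and without normal diet mice 2 and 3 (orange squares). Filled symbols have an adjusted p below 0.05. Aqp4 and S100b move from -0.88 and -0.84 to -0.57 and -0.46, Agt from -1.09 to -0.085, and Gjb6 and Atp1b2 stay above 0 in both fits.

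A ratio of 2 genes within a mouse stays the same when both change by the same factor, and 6 ratios were compared in a two-sided exact permutation test over the 70 assignments of mice to diets, whose smallest p is 0.0286. The ratio of connexin 43 to connexin 30 (Gja1 to Gjb6) was 2.94, 3.01, 3.47 and 2.93 in normal mice and 2.07, 2.27, 1.95 and 2.17 in HFD mice. The diets did not overlap, and the ratio was lower by 1.46-fold (exact permutation p = 0.0286, adjusted p over 6 ratios = 0.0429). Without normal mice 2 and 3 the difference was -0.47 on the log2 scale, beside -0.54 with all mice. The ratio of Gfap to Aqp4 was 1.83, 1.5, 1.38 and 1.89 in normal mice and 2.70, 2.18, 2.47 and 1.92 in HFD mice. HFD mouse 4 lay just above normal mouse 4, and the ratio was higher by 0.49 on the log2 scale (exact permutation p = 0.0286, adjusted p = 0.0429), or by 0.31 without mice 2 and 3.

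The ratio of Agt to Mfge8 was 0.113, 0.663, 0.661 and 0.146 in normal mice and 0.109, 0.103, 0.0613 and 0.102 in HFD mice. Its difference of -1.67 on the log2 scale (exact permutation p = 0.0286, adjusted p = 0.0429) became -0.48 without normal mice 2 and 3. The ratio of Mt1 to Mt3 was 1.01, 1.27, 1.31 and 0.972 in normal mice and 0.970, 0.901, 0.913 and 0.924 in HFD mice, with the same p and a difference of -0.29 that became -0.098 without mice 2 and 3. HFD mouse 1 lay just below normal mouse 4 for this ratio. The ratio of the glutamate transporters Slc1a2 to Slc1a3 was 2.69, 1.90, 1.74 and 2.50 in normal mice and 2.71, 2.77, 3.23 and 2.53 in HFD mice. It did not pass (exact permutation p = 0.0571), nor did the ratio of Mt1 to Mt2 (exact permutation p = 0.0571), which was 3.52 to 4.41 in normal mice and 3.22 to 3.60 in HFD mice. The diets overlapped in 1 mouse for both ratios.

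**Figure D5:**
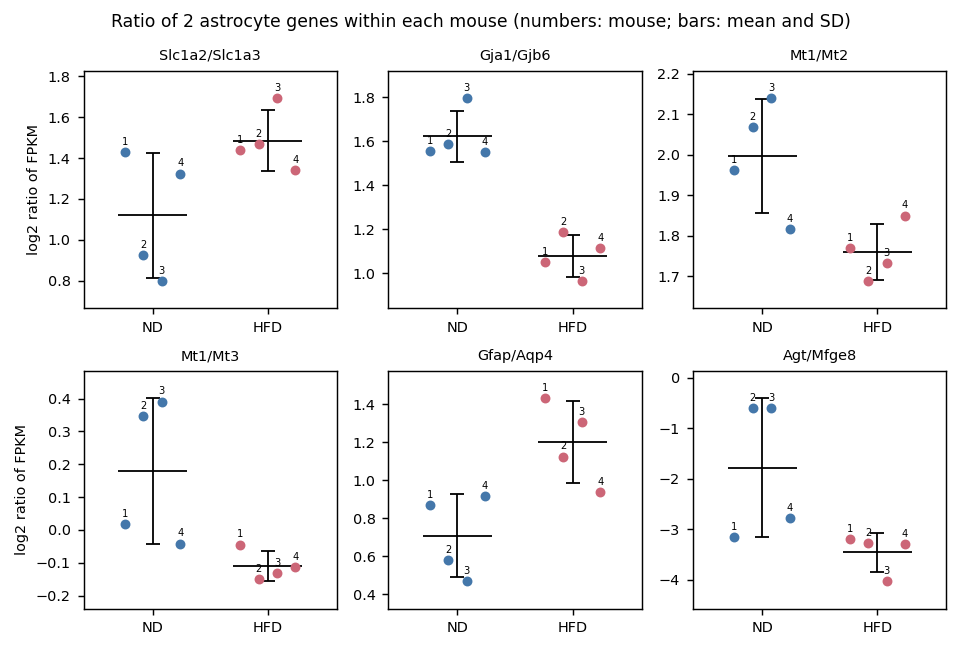
Log2 ratio of the FPKM of 2 astrocyte genes within each mouse, for 6 ratios, with the mouse number above each point and bars for the mean and SD of 4 mice (ND, normal diet). The axes differ between panels and do not start at 0. The ratio of Gja1 to Gjb6 separates the diets for all mice, while the ratio of Agt to Mfge8 is set apart mainly by normal mice 2 and 3.

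Astrocyte genes were expressed at high levels in all mice. The mean over the 8 mice ranged from 10.3 FPKM for Slc7a11 to 849 FPKM for Sparcl1, with a median of 64.0 FPKM beside 9.79 FPKM for all genes tested. Sparcl1, Glul, Aldoc and Slc1a2 ranked 48, 61, 81 and 116 among all genes in FPKM, followed by Mt1 and Mt3 at 281 and 274 FPKM, whose values overlapped among mice. None of the 35 genes was near the rounding unit of 0.1 FPKM.

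Other genes known from astrocytes moved in both directions as well. Of 40 further astrocyte genes, 4 were higher and 9 (22.5%) were lower, with a median log2 fold change of -0.032. Over all genes tested, 17.7% were higher and 15.3% were lower. Of the 40 genes, 32.5% were called in either direction, near the 33.1% of all genes tested. Among the called genes the largest changes were those of Grin2c, an NMDA receptor subunit (-0.72, standard error 0.172, adjusted p = 0.0116), the endothelin receptor gene Ednrb (-0.68) and Btbd17 (-0.64). The 4 higher genes were Nfib, Gpc5, Mertk and Entpd2, with log2 fold changes from 0.32 to 0.40. For Grin2c and Ednrb, normal mice 2 and 3 had the highest values of all mice. Without normal mice 2 and 3, 5 of the 40 were higher and 3 were lower, and the median was 0.015. Grin2c was then at -0.40 (adjusted p = 0.0195), Ednrb at -0.43 (adjusted p = 0.00834) and Btbd17 at -0.59 (adjusted p = 0.0667). The part of the marker RNA of other tissue in these changes was not tested.

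Among 11 partners in glutamate, potassium and water handling, 2 were lower. Kcnj10, the potassium channel that lies beside Aqp4 at endfeet, was at 14.0, 17.1, 17.4 and 12.2 FPKM in normal mice and at 9.5, 9.6, 11.7 and 8.7 in HFD mice, a log2 fold change of -0.61 (adjusted p = 0.00665). Slc38a3, a glutamine transporter, was the other, at -0.21. Of 9 glycogen and lactate genes, 1 was higher and 4 were lower, among them the glycogen branching enzyme gene Gbe1 (-0.49, adjusted p = 0.00202), the phosphorylase gene Pygm (-0.48) and the lactate carrier gene Slc16a1 (-0.41). Without normal mice 2 and 3, 0 of the 9 were higher and 1 was lower in limma. Gbe1 was then at -0.52 (adjusted p = 0.0125), Pygm at -0.23 (adjusted p = 0.208) and Slc16a1 at -0.27 (adjusted p = 0.0706). Of 5 genes of zinc and metal handling, only Slc30a3, the zinc transporter of synaptic vesicles in neurons, was called, at 0.69 (adjusted p = 0.00651).

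Reactive astrocyte genes were few among the values, with 21 of 36 listed genes. Their median level was 4.21 FPKM, beside 9.79 for all genes tested. In limma 0 of the 21 were higher and 4 (19.0%) were lower, beside 17.7% and 15.3% of all genes tested. At an unadjusted p below 0.05 in limma, 1 was higher, C4b at 0.38 (adjusted p = 0.0873), and 6 were lower. Amigo2 was at -1.04 (adjusted p = 0.00145), Serpina3n at -0.72 and Tm4sf1 at -0.49, and S100a10 was the fourth. Without normal mice 2 and 3, 1 of the 21 was higher, the heat shock gene Hspb1 at 0.56 (adjusted p = 0.0153), and 3 were lower. In that fit Tm4sf1 did not pass, at -0.39 (adjusted p = 0.0752), and C4b was at 0.57 (adjusted p = 0.0517). Of 12 genes that respond to glucocorticoids, 2 were higher and 3 were lower. Plin4, a lipid droplet protein, was at 0.6, 1.4, 0.8 and 0.7 FPKM in normal mice and at 2.8, 1.9, 3.5 and 2.8 in HFD mice, and Zbtb16 was higher by 1.11 on the log2 scale (adjusted p = 0.000459). Ddit4, Cdkn1a and Errfi1 were lower, and 7 of the 12, including Fkbp5 and Tsc22d3, did not pass. Among genes that mark the region of astrocytes, the forebrain transcription factor gene Lhx2 was higher, at 0.89. Itih3 was at 6.6, 15, 17.9 and 8.8 FPKM in normal mice and at 9.3, 9.0, 7.5 and 8.0 in HFD mice. As for Agt, normal mice 2 and 3 were the highest of the 8, and Itih3 did not pass. The number of distinct genes called over these 7 lists was 33 of 102 (32.4%) with all mice and 22 without normal mice 2 and 3, beside 33.1% and 19.6% of all genes.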

How the data were processed

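RNA of the cortex of 4 normal diet and 4 high fat diet fed mice was sequenced by the authors. The authors deposited FPKM from Trimmomatic, STAR (mm10) and Cuffnorm (GRCm38.p6 annotation), normalized for depth and length. They are rounded to 0.1, and depth is unknown. From these, log2(FPKM + 0.1) was compared with limma 3.58.1 (R 4.3.3, variance trend, two-sided, Benjamini-Hochberg over the 13982 genes that had no 0 and averaged 1 FPKM or more). Fold changes of low genes are understated on this scale. Ratios were compared with scipy 1.17.1, and upstream sequence came from RefSeq. On simulated data over 13982 genes, 87 of 100 genes changed 2-fold and 70 of 100 changed 1.5-fold were called, and 10 of 13782 unchanged genes were called. The simulated noise was independent between genes and few genes were changed, while 33.1% of genes were called in the data. These rates therefore do not cover differences that many genes share, such as those of the marker lists.

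The members and lists were chosen with earlier results of these data known. Values of every mouse are given for called members and members of the 6 ratios, other members by log2 fold change, and up to 3 called genes per further list by size of change. The second quantification, by Salmon, was not used here, and the results of 2 genes are not reported here. Gene positions come from GENCODE M21. Alternatives were another added constant, other filters, the replicate number as a block, rescaling, quantile normalization, a fit without the variance trend, cerebellar markers as a covariate and each mouse left out.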

Additional observations from a re-analysis of the deposited data

Results flagged for a closer look

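Within a diet, 1 mouse lay far from the other 3 for 3 of the 35 genes by Dixon's test at 95%. Gfap was at 64.1 FPKM in HFD mouse 1, above 45.3 to 47.9 in the others, and without that mouse its log2 fold change was -0.51 (adjusted p = 0.00562). Prdx6 was at 101.7 FPKM in normal diet mouse 1, above 87.3 to 88.7 in the others, and without that mouse it passed the threshold, at 0.14 (adjusted p = 0.0336). Mt3 was at 235.6 FPKM in normal diet mouse 3, below 264.5 to 270.3 in the others. Chance flags about 1 in 20 groups, and 70 groups were examined. Agt, where 2 of the 4 normal mice stood apart, is not found by this test.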

How the results depend on the processing

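The counts of called astrocyte genes kept within 1.5 times their main values under another added constant, other filters on low values, median-ratio rescaling, quantile normalization and no variance trend. Single calls moved near the threshold. Without the variance trend Slc1a2, Acsbg1, Htra1 and Cspg5 lost the call, Mt3 gained it after quantile normalization, Gja1 after median-ratio rescaling and Slc7a11 with a mean FPKM of at least 5. With each mouse left out, the higher genes numbered 3 to 7, the lower genes 5 to 9 and the called genes that differed by over 1.5-fold 2 to 5. Without HFD mouse 1, 2 or 3, 3 genes were higher, and without HFD mouse 2 or 4 or normal mouse 2 or 3, 5 were lower. Without normal mouse 1 or 4, 5 and 4 called genes differed by over 1.5-fold.

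Without normal mice 2 and 3, 5 genes were lower and 0 differed by over 1.5-fold. With the cerebellar covariate, 0 were higher, 1 was lower, 0 differed by over 1.5-fold and 1 gene of the further lists was called. In that fit the log2 fold changes that turned sign were those of Slc1a2 (-0.067), Slc1a3 (0.149), Glul (-0.058), Mlc1 (0.053), Gja1 (0.072), Cldn10 (0.110), Mt1 (0.082), Aldoc (0.198), Prdx6 (-0.079), Cspg5 (-0.066) and Agt (1.09). Without mice 2 and 3 those of Slc1a3 (0.00046), Glul (-0.0033), Mt1 (0.0055) and Aldoc (0.011) turned. Values near 0 also turned for Ntsr2 with median-ratio rescaling (-0.0032) and quantile normalization (-0.00045). With each mouse left out, the values that crossed 0 were those of Ntsr2 (-0.049 to 0.052), Sparcl1 (-0.0067 to 0.056), Glul (-0.0098 to 0.045) and Hepacam (-0.035 to 0.113).

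The mice share only replicate numbers. The correlation of same-numbered mice in their deviations from the diet means lay between -0.109 and -0.0275, so the numbers were not taken as pairs. With the replicate block, 5 genes were higher and 5 were lower, as Slc1a2, Gfap, Acsbg1 and Htra1 lost the call, and the ratio differences, -0.54 for Gja1 to Gjb6, -0.29 for Mt1 to Mt3, 0.49 for Gfap to Aqp4 and -1.67 for Agt to Mfge8, could not pass, as the smallest p is then 0.125. With a mouse left out the smallest p is 0.0571, and the differences lay between -0.58 and -0.49, -0.36 and -0.22, 0.41 and 0.58, and -2.12 and -1.27. Without mice 2 and 3 they were -0.47, -0.098, 0.31 and -0.48, with a smallest p of 0.133. The causes of these changes were not tested.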
